A study of Homo sapiens with 72 samples.

Results

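The genes described here are the 73 histone genes whose symbol begins with HIST1H, HIST2H, HIST3H or HIST4H, of 26485 genes in the count tables of poly(A)-selected RNA. They were chosen by name alone. They comprised 6 linker histone H1 genes, 18 H2A, 20 H2B, 14 H3 and 15 H4 genes, 56 of them on chromosome 6, 16 on chromosome 1 and 1 on chromosome 12. The study removed the activity of the RNA uridyl transferases TUT4 and TUT7, which add uridines to RNA 3′ ends, and compared cancer cells that do or do not carry LIN28A, an RNA-binding protein that recruits them to let-7 precursors. IGROV1 is an ovarian cancer line that makes its own LIN28A, DU145 is a prostate cancer line without it, and DU145-LIN28A is DU145 with LIN28A from a lentiviral vector under the CMV promoter. Each of these 3 backgrounds had wild-type cells (WT) and 2 catalytic knockout clones (cKO1 and cKO2), in which CRISPR was aimed at exon 12 of TUT4 and exon 14 of TUT7. The 9 groups had 4 libraries each. The labels give the replicates of a group successive passage numbers. In the DU145 and DU145-LIN28A cKO2 groups and both IGROV1 mutant groups the last number of the clone label also rises with the replicate, and it was read here as part of the replicate name. If that reading holds, the p-values measure the spread between passages and not between clones, and the labels do not say whether those numbers mark subclones. DU145-LIN28A cKO1 and cKO2 carry the same clone labels as DU145 cKO1 and cKO2 and are not further clones.

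Most histone proteins are made from clustered genes that are switched on in S phase. Their mRNAs have no introns and normally end at a stem-loop rather than a poly(A) tail. The stem-loop binding protein SLBP, together with the U7 snRNP, directs that cleavage, and when DNA synthesis stops uridines are added to the 3′ end and the mRNA is rapidly degraded. Some clustered genes also give rise to polyadenylated copies, which have been described in differentiating and resting cells. Poly(A) selection catches the latter copies and little of the stem-loop form, so the levels below are not total histone mRNA. In bulk RNA, fewer cells with a transcript and less transcript per cell cannot be told apart.

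The stem-loop is shown for the genes on which the results turn, because it is the element at which these mRNAs normally end without a poly(A) tail. It was searched as the 16-base histone stem-loop consensus in the 200 bases after the stop codon of the hg38 sequence. It was found in 70 of 70 protein-coding members, 23 to 68 bases after the stop codon, and in 3 of 19829 other protein-coding genes (0.0151%), which were BTBD10, H2AX and H3-7. In the lines that follow, all 5′ to 3′ in the sense of the gene, capitals mark the stem-loop.
HIST1H1C, chr6:26055739-26055764, minus strand: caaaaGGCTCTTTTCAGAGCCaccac
HIST1H2BK, chr6:27146361-27146386, minus strand: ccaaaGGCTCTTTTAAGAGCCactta
HIST2H2BE, chr1:149886183-149886208, minus strand: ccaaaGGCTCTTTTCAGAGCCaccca
HIST2H2AC, chr1:149887386-149887411, plus strand: ccaaaGGCTCTTTTTAGAGCCaccca
HIST1H4H, chr6:26285126-26285151, minus strand: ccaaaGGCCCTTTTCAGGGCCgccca
HIST1H2BN, chr6:27839085-27839110, plus strand: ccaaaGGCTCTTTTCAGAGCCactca
The 70 elements fell into 10 variants, and 40 genes shared the one of HIST1H1C, HIST2H2BE and HIST1H2BN. HIST1H1C, which held the most counts, and HIST1H2BN, which in DU145 changed in another way than HIST1H1C, had the same 16 bases.

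The members also differed in what follows the stem-loop. In RefSeq (GRCh38.p14), 10 of the 73 genes spanned more than 1000 bases (2224 to 29682), well past the stem-loop, while the other 63 spanned 386 to 797 bases. The 10 long genes held 42.6% of all member counts, and 82.8% together with HIST1H1C, whose RefSeq entry is short (731 bases). The poly(A) signal AATAAA stood in the last 50 bases of the RefSeq span in 6 of 8 long genes and 2 of 57 short genes that RefSeq gives as protein-coding and that were read, and in 63.3% of other protein-coding genes. The long genes included HIST1H2BK (chr6:27138293-27146858), HIST2H2BE (chr1:149884459-149886682), HIST1H2BD (chr6:26158121-26171349) and HIST1H2BC (chr6:26113170-26123926).

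Promoter sequence, from 250 bases before to 50 after the RefSeq start, is shown for HIST2H2BE and HIST1H2BK, H2B genes that were called in at least 1 clone of every background, and for the H1 gene HIST1H1C. Capitals mark matches on either strand to the CCAAT box, to the TATA box as TATAAA or with its last letters changed as TATATA, and to the octamer of H2B promoters, which is ATTTGCAT. Overlapping matches run together.
HIST2H2BE, chr1:149886633-149886932, minus strand: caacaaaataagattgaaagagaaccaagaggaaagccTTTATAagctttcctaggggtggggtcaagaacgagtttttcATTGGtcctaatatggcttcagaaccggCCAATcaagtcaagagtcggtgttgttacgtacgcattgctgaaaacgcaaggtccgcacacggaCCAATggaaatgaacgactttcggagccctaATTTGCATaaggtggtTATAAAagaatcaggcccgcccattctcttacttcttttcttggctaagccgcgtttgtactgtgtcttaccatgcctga
HIST1H2BK, chr6:27146809-27147108, minus strand: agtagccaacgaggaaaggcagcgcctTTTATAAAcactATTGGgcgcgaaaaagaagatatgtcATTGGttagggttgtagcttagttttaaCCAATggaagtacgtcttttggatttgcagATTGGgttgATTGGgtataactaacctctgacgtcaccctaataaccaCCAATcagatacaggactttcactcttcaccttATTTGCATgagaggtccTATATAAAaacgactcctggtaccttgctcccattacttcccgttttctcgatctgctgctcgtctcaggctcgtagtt
HIST1H1C, chr6:26056421-26056720, minus strand: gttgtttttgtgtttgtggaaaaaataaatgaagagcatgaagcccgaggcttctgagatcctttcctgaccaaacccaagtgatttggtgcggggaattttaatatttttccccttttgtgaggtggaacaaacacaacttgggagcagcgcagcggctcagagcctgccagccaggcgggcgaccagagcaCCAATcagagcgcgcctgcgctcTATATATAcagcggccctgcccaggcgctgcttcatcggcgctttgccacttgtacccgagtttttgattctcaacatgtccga
Of 65 members with a promoter in the RefSeq table, 55 held CCAAT (35.6% of other promoters), 48 held TATAAA or TATATA (14.1%) and 26 held the octamer (1.71%). The octamer was found in 14 of 18 H2B and 11 of 16 H2A promoters, in 1 of 12 H3 promoters and in none of the 6 H1 and 13 H4 promoters. HIST2H2BE and HIST2H2AC start 236 bases apart on opposite strands, so the first of these sequences lies between and over both start sites. A match is a description of the letters only.

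Between 7195437 and 25054688 reads were counted to genes per library, and 866 to 23037 of them fell on the 73 members. Levels below are on the counts-per-million (CPM) scale, relative to the reads counted to genes. ZCCHC11 (TUT4) was at 78 CPM in IGROV1 WT and 26.6 and 27.1 in its clones, and at 56.7 in DU145 WT, 12 in cKO1 and 41.7 in cKO2. ZCCHC11 fell in each clone of IGROV1 and in cKO1 of both DU145 backgrounds, but not past the threshold in cKO2 of DU145 (adjusted p = 0.0708) or DU145-LIN28A (adjusted p = 0.465), while ZCCHC6 fell in every clone of each background. ZCCHC6 (TUT7) went from 33.8 CPM to 17.9 and 12.6 in IGROV1, and from 43.2 to 14.2 and 23.9 in DU145. Whole-gene counts do not show whether the targeted exon was lost. The study's own check was of protein, and its Western blots showed TUT4 and TUT7 depleted in both mutant clones of DU145 and of IGROV1. It also reported less mono-uridylation of miRNAs in the mutants. LIN28A was at 226 CPM in IGROV1 WT, at 0.115 in DU145 WT and at 69.6 in DU145-LIN28A WT, but at 379 and 262 in the DU145-LIN28A clones, so LIN28A was not at one level across that background. PAX8, an ovarian tumour marker, was at 640 CPM in IGROV1 WT and 0.859 in DU145 WT. KRT8, an epithelial keratin, was at 195 and 784, and the prostate marker KLK3 was near 0 in both lines. Other listed markers went the other way. Of 4 tested ovarian tumour markers, 1 was higher and 3 were lower in IGROV1 WT than in DU145 WT. Of 6 tested prostate epithelial markers, 3 were higher and 3 lower, beside 28.7% and 31.3% of all genes. KRT8 was down to 2.74 and 1.54 CPM in the IGROV1 clones.

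Of the 73 members, 63 had a count in some library and 32 had enough counts to be tested, namely 3 H1, 8 H2A, 11 H2B, 7 H3 and 3 H4 genes. The 41 members that were not tested held 0.576% of the member counts. Of the 10 members with no count, 6 shared over 90% of their 50-base windows with another member, and reads that fit more than 1 place were not counted. Counts were concentrated in a few genes. Over all libraries together, in which the DU145 libraries weigh most, HIST1H1C, which encodes linker histone H1.2, held 40.2% of the member counts, HIST1H2BK (H2B) 26.4%, HIST2H2BE (H2B) 9.15%, HIST1H2AC (H2A) 7.57% and HIST1H2BD (H2B) 4.49%. These 5 genes made up 90.9% ± 0.849 (SD, n = 4) of the sum in DU145 WT but 57.8% ± 2.28 in IGROV1 WT. Their order changed between groups. HIST1H1C held 47.9% in DU145 WT, 19.4% in IGROV1 WT and 9.09% in IGROV1 cKO1, where HIST1H2BK (22.9%), HIST2H2BE (14.4%) and HIST1H2BD (10.1%) held more. HIST1H2BK also held more than HIST1H1C in IGROV1 cKO2 (19.4% and 16%) and in DU145-LIN28A cKO2 (33.8% and 27.4%).

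The summed level of the 73 genes differed by line and by clone. It was 72 ± 5.55 CPM (SD, n = 4) in IGROV1 WT, 95.1 ± 23.4 in cKO1 and 197 ± 63.5 in cKO2. In DU145 it was 542 ± 47.2 CPM in WT, 1320 ± 51.5 in cKO1 and 402 ± 33.7 in cKO2. The sums of the DU145 clones thus lay on opposite sides of their wild type, but for cKO2 this rested largely on HIST1H1C. The ratio of its sum to wild type was 0.742, and 0.923 without that gene. In DU145-LIN28A it was 692 ± 73 CPM in WT, 1310 ± 97.5 in cKO1 and 431 ± 33 in cKO2. The same order was found with LIN28A as without it, and in neither background did a library of cKO1 or cKO2 reach into the range of the wild type.

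**Figure D1:**
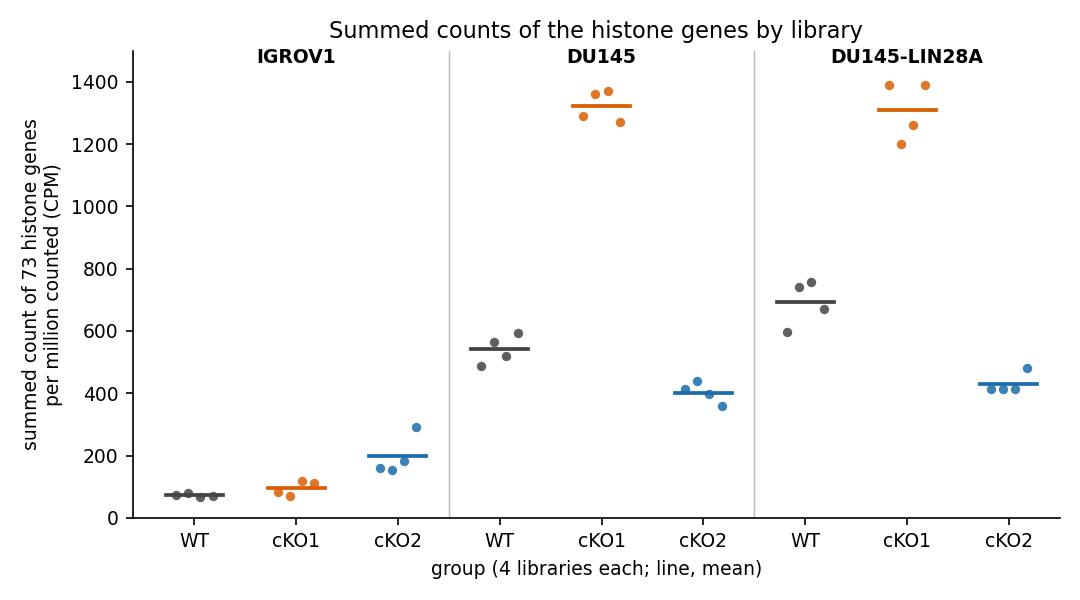
Summed level on the counts-per-million scale (vertical axis, CPM) of the 73 histone genes in each of the 36 libraries, by group; points are libraries and lines are group means. In DU145 the 4 cKO1 libraries (1270 to 1370) lie above and the 4 cKO2 libraries (358 to 438) below the wild type (488 to 595), and the DU145-LIN28A libraries fall in the same order.

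In DU145, the mean of the clones hid this split. In the mean of both clones against wild type, 6 of the 32 tested members rose and none fell. Of all 15556 genes tested, 7.84% rose and 10.2% fell. The 6 were HIST1H3B, HIST1H2BN, HIST1H2AE, HIST1H2BJ, HIST1H3H and HIST1H2BC. Without wild-type replicate 1 or 3 the count was 2, and without wild-type replicate 2, cKO1 replicate 1 or 2, or cKO2 replicate 2 it was 3. In cKO1 alone 18 members rose and none fell, beside 10.4% and 11.3% of all genes, and the median log2 fold change was 1.36 (all genes, -0.01). In cKO2 alone 1 member rose and 2 fell, beside 9.99% and 10.5% of all genes, with a median of -0.24 (all genes, 0.00), a share of members below that of all genes in each direction. All 4 cKO1 libraries were above all 4 wild-type libraries for 24 of 32 members, against 16.1% of all genes, and for cKO2 the count was 2 members above (21.4%) and 3 below (11.2%).

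HIST1H1C carried most of the split. Its level was 245, 274, 257 and 260 CPM in DU145 WT, 621, 671, 669 and 669 in cKO1, and 149, 147, 147 and 121 in cKO2. The 3 groups did not overlap. It rose 2.54-fold in cKO1 (log2 fold change 1.34, SE 0.22, adjusted p = 1.24e-05) and fell in cKO2 (log2 fold change -1.0, SE 0.22, adjusted p = 0.000539). In the mean of the clones its log2 fold change was 0.17 (SE 0.19).

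Among the H2B genes, HIST2H2BE was at 25.9, 47.3, 42.8 and 54.4 CPM in DU145 WT, 114, 116, 139 and 85.9 in cKO1, and 25.1, 24.4, 23.3 and 20.6 in cKO2. Each cKO1 library was above and each cKO2 library below the wild type. It rose in cKO1 (log2 fold change 1.42, SE 0.25, adjusted p = 3.51e-05) and fell in cKO2 (-0.98, SE 0.25, adjusted p = 0.00278). HIST1H2BK was at 139, 113, 114 and 159.4 CPM in WT, 269, 304, 280 and 305 in cKO1 and 133, 144, 130 and 128 in cKO2. Here cKO1 stood above and cKO2 lay inside the wild-type range. Its log2 fold change was 1.14 in cKO1 (SE 0.19, adjusted p = 1.62e-05) and -0.10 in cKO2 (SE 0.19). HIST1H2BC rose in cKO1 by 1.74 (SE 0.20, adjusted p = 2.7e-08), from 6.44, 11.9, 8.28 and 9.07 CPM to 37.4, 29.8, 31.2 and 20.8.

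HIST1H2BN, another H2B gene, did not follow the split. It was at 1.43, 1.35, 2.3 and 1.65 CPM in DU145 WT, 4.89, 3.76, 4.26 and 2.22 in cKO1 and 5.34, 3.88, 4.7 and 4.35 in cKO2. It was higher in both clones, and cKO2 did not overlap the wild type. It rose in cKO1 (log2 fold change 1.17, SE 0.29, adjusted p = 0.00214) and in cKO2 (1.31, SE 0.29, adjusted p = 0.000587), and it was the 1 member that rose in cKO2. Its divergent H2A neighbour HIST1H2AK, whose start lies 170 bases away, changed by 0.25 and 0.48 and was not past the threshold in either clone.

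Some genes of H3, H4 and H2A also rose in cKO1, and others were not called. HIST1H3B (H3) was at 0.511, 1.14, 1.01 and 1.06 CPM in WT and at 5.35, 4.3, 4.71 and 4.86 in cKO1, a log2 fold change of 2.36 (SE 0.26, adjusted p = 2.19e-08). In cKO2 it was at 0.855, 1.5, 1.19 and 1.55 CPM and was not called (0.33, SE 0.30). HIST1H3H (H3) rose by 1.97 in cKO1 (SE 0.23, adjusted p = 3.22e-08), HIST1H4H (H4) by 1.44 (SE 0.23, adjusted p = 1.17e-05) and HIST1H2AE (H2A) by 1.95 (SE 0.26, adjusted p = 6.51e-07). By family, 1 of 3 H1, 5 of 8 H2A, 7 of 11 H2B, 3 of 7 H3 and 2 of 3 H4 genes rose in cKO1. HIST1H2AI, HIST1H2AM and HIST1H4K are among them and share 63.5%, 67.8% and 92.6% of their 50-base windows with other members, so their counts are uncertain. Members that were not called there included HIST1H3J (0.43), HIST2H2AC (0.48) and HIST1H4C (0.83). HIST1H3E had 1 count in all of DU145 WT and 1 in all of cKO1, too few to read a change.

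**Figure D2:**
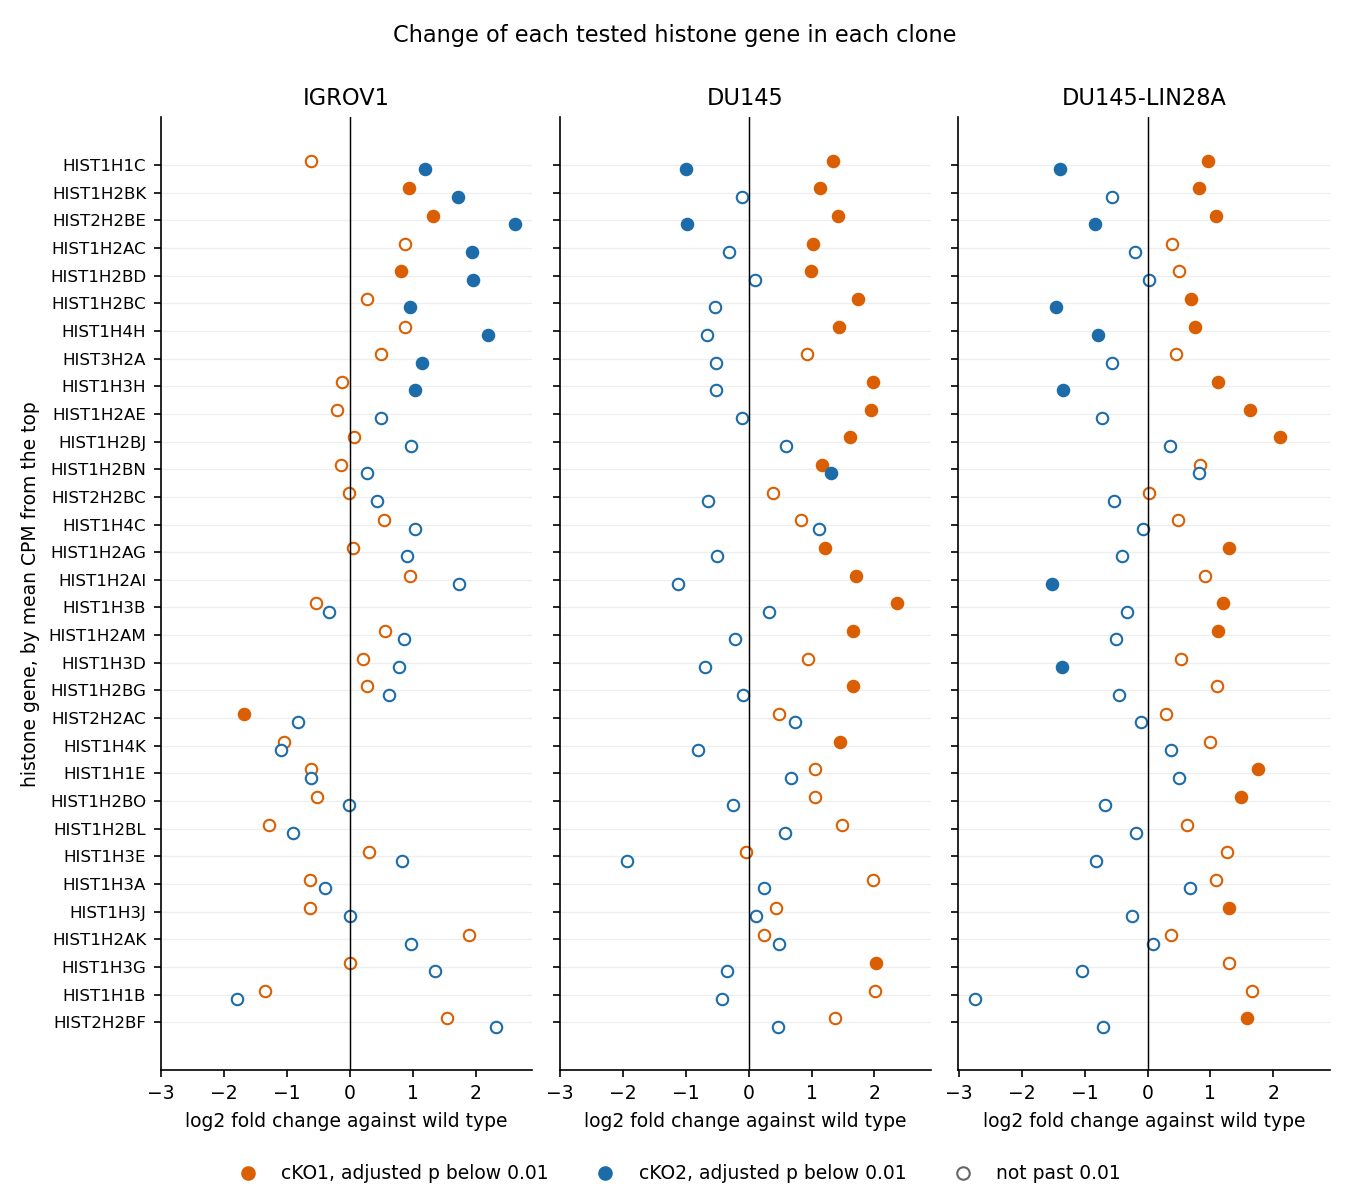
Log2 fold change against wild type (horizontal axis) of each of the 32 tested histone genes (rows, most abundant at the top) in cKO1 (orange) and cKO2 (blue) of each background; filled points had an adjusted p below 0.01. In DU145 and DU145-LIN28A nearly all orange points lie to the right of the blue ones, with HIST1H2BN as an exception, and in IGROV1 the blue points tend to lie to the right.

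In the libraries of the same clones with LIN28A, the sums of cKO1 and cKO2 again lay on opposite sides of the wild type (for cKO2 a ratio of 0.623, and 0.764 without HIST1H1C). In DU145-LIN28A cKO1, 15 members rose and none fell (11.3% and 13.9% of all genes; median 1.04). In DU145-LIN28A cKO2, none rose and 7 fell (10.5% and 10.1%; median -0.52). Leaving out wild-type replicate 3 gave 3 calls, and leaving out wild-type replicate 2 or 4 or cKO2 replicate 1, 2 or 3 gave 4. The 7 were HIST1H1C, HIST2H2BE, HIST1H2BC, HIST1H4H, HIST1H3H, HIST1H2AI and HIST1H3D. HIST1H2BK, at -0.10 in DU145 cKO2, was at -0.57 here and was not called. Whether each clone's change differed between the backgrounds was not tested. In the mean of both clones against wild type, 2 members rose, HIST1H2BJ and HIST1H2BN, and none fell (7.35% and 10.6% of all genes). Without wild-type replicate 2, 3 or 4 none was called. Without wild-type replicate 1, in which the mitosis genes were high, 4 rose and 1 fell. All 4 libraries of cKO1 were above the wild type for 19 members (17.3% of all genes), and all 4 of cKO2 were below it for 5 (10%).

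HIST1H1C was at 260, 343, 285 and 239 CPM in DU145-LIN28A WT, 638, 501, 492 and 648 in cKO1 and 133, 119, 99.7 and 118 in cKO2. Again the 3 groups did not overlap. Its log2 fold change was 0.96 in cKO1 (SE 0.22, adjusted p = 0.000625) and -1.40 in cKO2 (SE 0.22, adjusted p = 6.27e-06). HIST2H2BE was at 35.8, 49.2, 75.6 and 68.2 CPM in WT, 110, 94.4, 168 and 131 in cKO1 and 29.2, 37.1, 32.4 and 42.3 in cKO2, where cKO2 overlapped the lowest wild-type library. HIST1H2BN was at 2.21, 1.98, 1.54 and 2.03 CPM in WT, 3.32, 3.82, 3.47 and 3.7 in cKO1 and 3.35, 3.37, 3.91 and 4.65 in cKO2. It stood above the wild type in every library of both clones. In the mean of the clones it rose against wild type (0.82, SE 0.24, adjusted p = 0.00848), and it differed by 0.01 (SE 0.25) between the clones. By single clone it was not called there (adjusted p = 0.0144 and 0.0179).

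**Figure D3:**
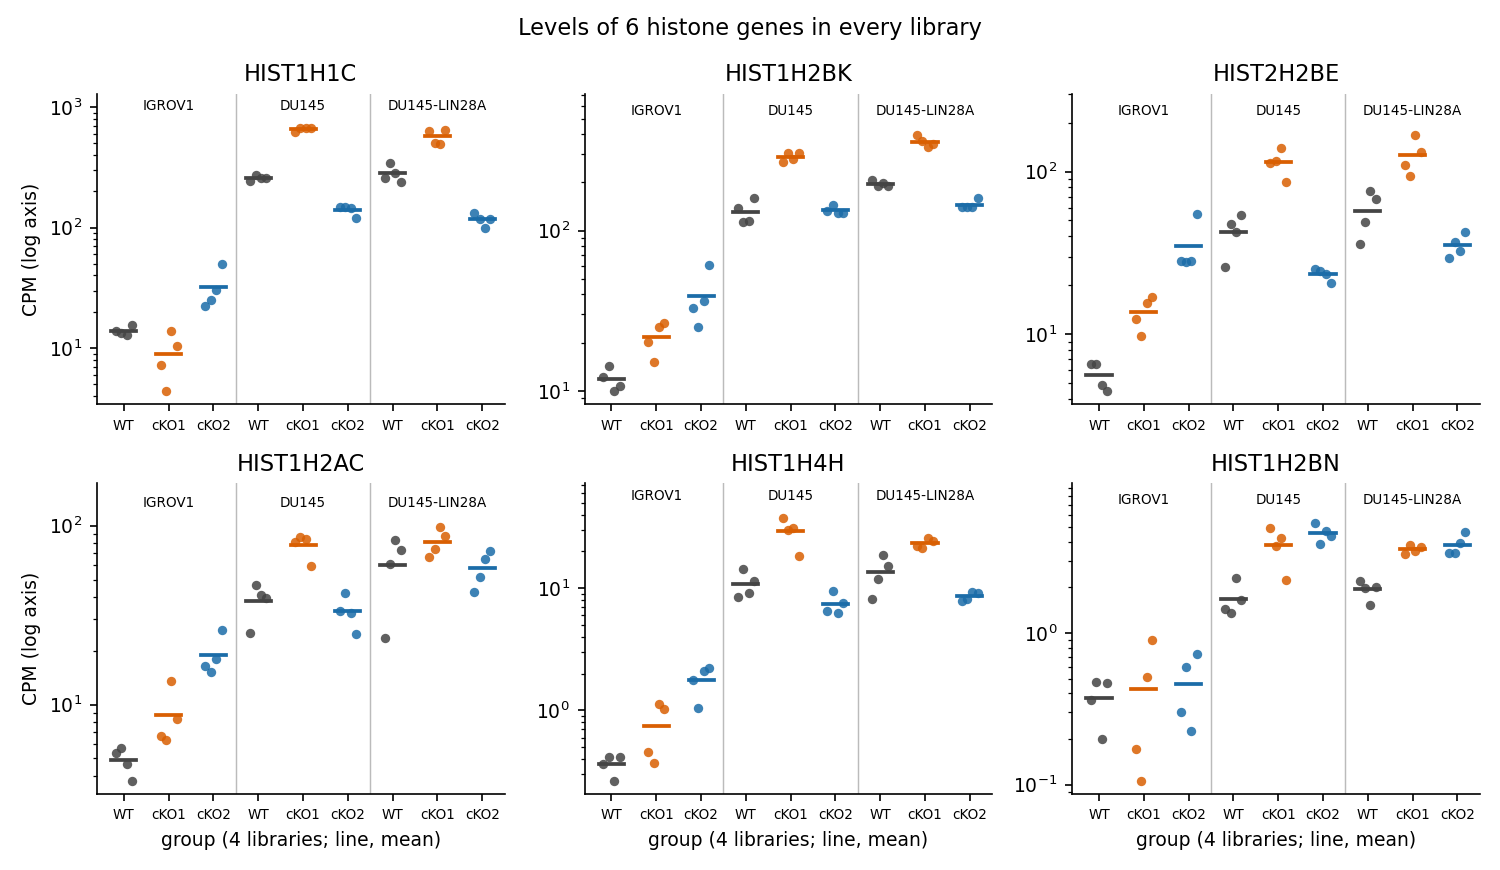
Level of 6 histone genes in every library (vertical axis, CPM, log scale), by group; points are libraries and lines are group means. In both DU145 backgrounds HIST1H1C, HIST1H2BK, HIST2H2BE and HIST1H4H are highest in cKO1, HIST1H2BN is raised in both clones, and in IGROV1 HIST2H2BE and HIST1H2BK are raised in both clones.

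Compared directly, cKO1 was above cKO2 for 22 members in DU145 and for 21 in DU145-LIN28A, with none lower in either. All genes were called higher in 15.7% and 17.7% of cases and lower in 15.4% and 20%. Of these members 18 were shared, which is 81.8% of the DU145 list and 85.7% of the DU145-LIN28A list. For all genes that were higher in cKO1 the shares were 72.1% and 64%. Across the 32 members the log2 differences between the clones in the 2 backgrounds had a Pearson r of 0.654 and a Spearman rho of 0.713. Across all 15556 genes tested both were higher, at 0.827 and 0.776. These are given as a description, since genes are not independent and both sets come from the same clones in different libraries. HIST1H1C differed by 2.34 in DU145 and by 2.36 in DU145-LIN28A. HIST1H2AC differed by 1.35 (adjusted p = 0.000122) and by 0.59 (adjusted p = 0.0603), and whether these 2 values differ was not tested. The direct comparison was chosen after the split was seen.

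**Figure D4:**
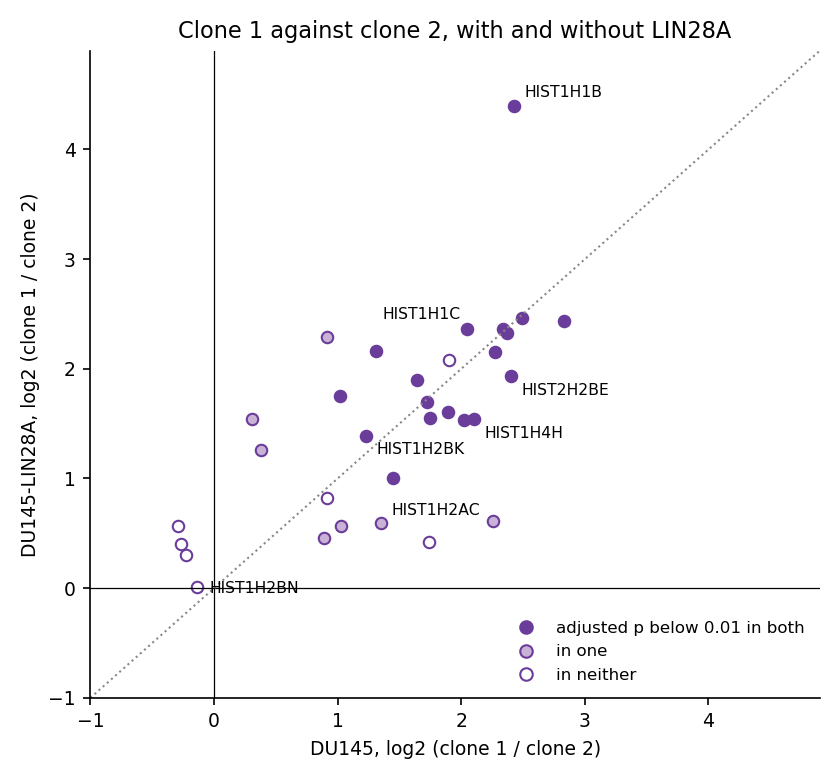
Log2 difference of cKO1 and cKO2 for the 32 tested histone genes in DU145 (horizontal axis) and in DU145-LIN28A (vertical axis), with the diagonal dotted; fill marks whether the adjusted p was below 0.01 in both, one or neither. Most points lie in the upper right, and HIST1H2BN lies near the origin. HIST1H1B is highest on the vertical axis only (4.40, and 2.43 on the horizontal axis), and had 3 counts in all of DU145-LIN28A cKO2.

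In IGROV1 the H2B genes HIST2H2BE, HIST1H2BK and HIST1H2BD rose in both clones. In the mean of the clones against wild type, 6 members rose and 1 fell (HIST2H2AC), while 15.1% of all genes rose and 18.1% fell. The 6 were HIST2H2BE, HIST1H2BK, HIST1H2BD, HIST1H2AC, HIST1H4H and HIST3H2A. In cKO1, 3 members rose and 1 fell (14.5% and 16.6% of all genes; median 0.06), a share of members below that of all genes. In cKO2, 9 members rose and none fell (14.2% and 15.9%; median 0.88). In cKO1 all 4 libraries were above the wild type for 4 members (16.5% of all genes) and below it for 2 (24%), and in cKO2 they were above it for 14 (21.2%) and below it for none (21.3%).

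HIST2H2BE was at 6.52, 6.52, 4.86 and 4.45 CPM in IGROV1 WT, 12.3, 9.74, 15.6 and 16.8 in cKO1 and 28.1, 27.7, 28.4 and 55.1 in cKO2. The 3 groups did not overlap. It rose 3.95-fold in the mean of the clones (log2 fold change 1.98, SE 0.24, adjusted p = 3.52e-08), by 1.33 in cKO1 and by 2.63 in cKO2. Its divergent neighbour HIST2H2AC (H2A), whose start lies 236 bases away, went the other way. It was at 2.64, 2.73, 1.46 and 2.12 CPM in WT, 0.743, 0.424, 0.619 and 1.03 in cKO1 and 1.26, 0.918, 1.28 and 1.78 in cKO2. Only cKO2 overlapped the wild type, and the gene fell in the mean (log2 fold change -1.25, SE 0.27, adjusted p = 0.000221). About 23.4% of its 50-base windows are shared with other members.

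HIST1H2BK was at 12.1, 14.3, 9.91 and 10.8 CPM in IGROV1 WT, 20.1, 15.2, 25.1 and 26.5 in cKO1 and 32.9, 24.9, 36.6 and 61.3 in cKO2. Both clones lay above the wild type in every library. It rose by 1.33 in the mean (SE 0.18, adjusted p = 1.86e-07). HIST1H2BD (H2B) rose by 1.39 (SE 0.22, adjusted p = 2.5e-06) and HIST1H2AC (H2A) by 1.41 (SE 0.27, adjusted p = 4.7e-05).

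HIST1H1C differed between the IGROV1 clones. It was at 13.9, 13.5, 12.9 and 15.4 CPM in WT, 7.2, 4.39, 13.9 and 10.5 in cKO1 and 22.5, 24.9, 30.2 and 50.1 in cKO2. In cKO1, 3 libraries were below the wild type and 1 was within its range, and it was not called (-0.61, SE 0.24), and in cKO2 it rose by 1.19 (SE 0.23, adjusted p = 6.24e-05). Compared directly, cKO1 was below cKO2 for 7 members and above it for none, beside 10% and 8.79% of all genes. Without cKO1 replicate 1 or cKO2 replicate 4 the count was 3, and without cKO1 replicate 2 it was 4. With HIST1H1C at -1.80 (adjusted p = 3.78e-07), the members that differed included HIST2H2BE at -1.30 (adjusted p = 0.000161) and HIST1H2BD at -1.14 (adjusted p = 0.000269). The IGROV1 libraries also differed in cell type markers. Of 6 tested prostate epithelial markers, 4 fell and 1 rose (HOXB13 at 1.65) in the mean of the clones against wild type. Among those that fell were KRT8 (-6.63), EPCAM (-8.6) and KRT18 (-1.18). KRT18 was at 292 CPM in cKO1 and 32.8 in cKO2 (226 in WT). Of 4 tested ovarian tumour markers MUC16 (-3.79) and MSLN (-3.65) fell, and of 4 markers of other cell types PECAM1 fell (-4.89) and ACTA2 rose (1.36). The part of these differences in the histone values was not tested.

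Sorted by the length of the RefSeq span, the tested members with long spans and those with short spans changed by unlike amounts in IGROV1. The median log2 fold change in the mean of the clones was 1.33 for the 7 long genes, of which 3 rose, and 0.29 for the 25 short genes, of which 3 rose and 1 fell (15.1% and 18.1% of all genes). In IGROV1 cKO1 the medians were 0.82 and -0.13, and the 3 members that rose (14.5% of all genes) were all long. In IGROV1 cKO2 the medians were 1.72 and 0.63, and of the 9 that rose (14.2% of all genes) 4 were long and 5 short. In DU145 cKO1 the order was the other way, at 1.14 for long genes (4 rose) and 1.44 for short ones (14 rose, beside 10.4% of all genes), and in DU145-LIN28A cKO1 it was 0.82 and 1.09. In cKO2 the medians were -0.53 and -0.22 in DU145 and -0.82 and -0.40 in DU145-LIN28A. The split by length was not tested. HIST1H2BK and HIST1H3D contain another member within their span (HIST1H4I and HIST1H2AD), and without a stated strand setting such reads cannot be assigned with certainty.

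The wild-type lines differed in most tested members, as they did in most genes, and most members that differed were lower in IGROV1. In IGROV1 WT against DU145 WT, 18 members were lower and 4 higher, beside 31.3% and 28.7% of all genes, with a median of -1.36 (all genes, -0.03). On the log2 scale HIST1H1C differed by -4.14 (SE 0.25, adjusted p = 2.42e-16), HIST1H4H by -4.76 (SE 0.33, adjusted p = 1.2e-14) and HIST1H2BK by -3.40 (SE 0.21, adjusted p = 4.38e-16). The 4 higher members were HIST3H2A, HIST2H2AC, HIST1H3E and HIST1H4C. HIST1H3E had 1 count in all of DU145 WT and passed the count filter through the IGROV1 libraries, so nothing is drawn from its call. HIST1H3G, among the lower members, likewise had 0 counts in IGROV1 WT. HIST3H2A, an H2A gene apart from the main clusters at chr1:228457364-228457873, was at 9.73, 10.2, 9.31 and 9.16 CPM in IGROV1 WT and 2.86, 3.11, 2.57 and 1.88 in DU145 WT.

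The difference of mutants from wild type was compared between the lines by an interaction in the same fit. In DU145 and for IGROV1 cKO1 this difference cannot be told apart from passage. In IGROV1 minus DU145, 2 members were higher and 2 lower, beside 11.3% and 12.8% of all genes. HIST2H2BE was higher by 1.77 (SE 0.32, adjusted p = 3.66e-05) and HIST1H2BK by 0.81 (SE 0.23, adjusted p = 0.00711). HIST1H3B differed by -1.78 (adjusted p = 0.00389) and HIST2H2AC by -1.86 (adjusted p = 0.00887). Without IGROV1 WT replicate 1 there was 1 call, and without IGROV1 WT replicate 4, IGROV1 cKO1 replicate 3, DU145 WT replicate 4 or DU145 cKO2 replicate 3 there were 2. For HIST2H2BE the DU145 value is a mean of clones that went opposite ways. In DU145-LIN28A minus DU145 no member was called by edgeR's quasi-likelihood test, beside 0.18% of all genes higher and 0.309% lower. At an unadjusted p under 0.05 there were 3, and DESeq2 called none.

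LIN28A itself was tested in wild type and in mutants. In DU145 wild-type cells with LIN28A, 3 members rose and none fell, beside 6.67% and 2.55% of all genes. They were HIST1H2BC (1.02, SE 0.20, adjusted p = 0.000347), HIST1H3H (0.98, SE 0.23, adjusted p = 0.00241) and HIST1H3B (1.09, SE 0.28, adjusted p = 0.00554). Without DU145 WT replicate 1 or DU145-LIN28A WT replicate 3 there was 1 call, and without DU145-LIN28A WT replicate 1 there were 7 (5 rose, 2 fell). In the mutants no member was called by edgeR, beside 13.9% and 9.76% of all genes, with 7 at an unadjusted p under 0.05, and DESeq2 called none. The wild-type lines with and without LIN28A were at early (1 to 4) and much later passages, so passage and LIN28A cannot be told apart. Likewise the DU145 clones were labelled passages 9 to 12 (cKO1) and 8 to 11 (cKO2) and shared no passage number with DU145 WT. In DU145 the difference of a clone from its wild type thus cannot be told apart from passage. The clones themselves overlapped in passage, and all 3 groups of DU145-LIN28A were at passages 1 to 4. In IGROV1, WT was at passages 6 to 9, cKO1 at 2 to 5 and cKO2 at 3 to 6, so the difference of cKO1 from WT cannot be told apart from passage, and cKO2 shared only passage 6 with WT.

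Genes that act on histone mRNA were read from lists, in the mean of the clones against wild type. In that comparison 15.1% of all genes rose and 18.1% fell in IGROV1, 7.84% and 10.2% in DU145, and 7.35% and 10.6% in DU145-LIN28A. In the processing and decay lists the share called was below that of all genes in each direction and background. Of 24 tested genes for histone mRNA processing, 1 rose and 4 fell in IGROV1 (SLBP among the latter at -0.45, adjusted p = 0.00204), 1 rose and 2 fell in DU145, and 1 fell in DU145-LIN28A. The others named by the rule were NCBP2 (-0.51), CPSF3 (-0.49) and SNRPE (-0.45) in IGROV1, CPSF2 (-0.67), CPSF4 (-0.46) and WDR33 (0.26) in DU145 and CPSF4 (-0.65) in DU145-LIN28A. Of 26 tested genes for histone mRNA decay, 1 rose and 4 fell in IGROV1, 2 fell in DU145, and 1 rose and 2 fell in DU145-LIN28A. In IGROV1 these included MIF4GD, a partner of SLBP in translation (-1.01), DIS3L (-0.55) and EXOSC10 (-0.34), and in DU145-LIN28A PRKDC (0.65). ERI1, a 3′ exonuclease that binds the histone stem-loop, was at 142 CPM in DU145 WT, 109 in cKO1 and 37.6 in cKO2, and at 112, 107 and 31.8 in DU145-LIN28A. It fell in cKO2 by 2.04 (adjusted p = 1.23e-08) and by 1.95 (adjusted p = 2.4e-08), and in IGROV1 cKO2 it rose by 1.12 (adjusted p = 8.77e-05). LSM1, of the LSM1-7 ring that takes part in mRNA decay, fell in the same DU145 clone, by 1.43 without LIN28A (adjusted p = 5.39e-12) and 1.56 with it (adjusted p = 4.73e-13). LSM1 also fell in DU145-LIN28A cKO1, by 0.37 (adjusted p = 0.00659), and rose in IGROV1 cKO2 by 0.36 (adjusted p = 0.00651). LSM11, a U7 snRNP protein, fell in the cKO2 clone by 0.74 and 0.64. Other listed genes rose in that clone. Of the decay genes, 1 rose and 2 fell in DU145 cKO2, where 9.99% and 10.5% of all genes did. In DU145-LIN28A cKO2, 4 rose and 2 fell, beside 10.5% and 10.1% of all genes. Of the processing genes, 1 rose and 1 fell in cKO2 of each of these backgrounds. The part of these genes in the histone levels was not tested. Of 11 tested terminal nucleotidyltransferases, 1 rose and 5 fell in IGROV1, 5 fell in DU145 and 4 fell in DU145-LIN28A, TUT4 and TUT7 among them. FAM46C, a poly(A) polymerase, rose in IGROV1 by 2.03 and fell by 1.90 in DU145 and 1.13 in DU145-LIN28A, and PAPOLA, the main nuclear poly(A) polymerase, fell by 0.81 in IGROV1 and 0.55 in DU145.

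Replacement histones are made outside S phase from polyadenylated mRNA, and 11 were tested. None was called by edgeR in any of the 3 comparisons of the mean of the clones with wild type (4, 3 and 2 at an unadjusted p under 0.05). By clone, 4 of the 11 rose in IGROV1 cKO2 (14.2% of all genes) and 3 in DU145 cKO1 (10.4%), and in DU145-LIN28A cKO1 2 rose (11.3%) and 1 fell (13.9%). In cKO2 of DU145 and of DU145-LIN28A 1 fell (10.5% and 10.1%), and in IGROV1 cKO1 none was called by edgeR, with 0 at an unadjusted p under 0.05. H2AFJ rose in DU145 cKO1 by 1.08 (adjusted p = 0.000208) and in DU145-LIN28A cKO1 by 1.11 (adjusted p = 0.000117), and H1F0 rose in IGROV1 cKO2 by 0.96 (adjusted p = 2.57e-05). RNAs that have no poly(A) tail were counted as a sign of how strictly poly(A) RNA was selected. Their sum was 48.4, 47.5 and 46.1 CPM in IGROV1 WT, cKO1 and cKO2, 61.8, 54.6 and 55.5 in DU145 and 36.4, 26.5 and 33.4 in DU145-LIN28A. In each background the mean of neither clone was above that of its wild type. Gene by gene, most of the 11 that were tested lay below the wild type in both DU145 clones, and in DU145 further below in cKO2, where the histone sum was also lower. In DU145 cKO2, 1 of 11 was positive (median log2 fold change -0.97), none was called by edgeR and 6 were at an unadjusted p under 0.05, and in DU145 cKO1 the median was -0.26. Compared directly in DU145, 10 of 11 were higher in cKO1 than in cKO2 (median 0.64) and 1 was called (15.7% of all genes). In DU145-LIN28A cKO2, 2 fell (SCARNA9 and SCARNA17, beside 10.1% of all genes) and the median was -0.56, against -0.47 in cKO1, and compared directly 2 were called higher in cKO1 (17.7% of all genes; median 0.07). Among the wild types the sum of these RNAs was 48.4 CPM in IGROV1, 61.8 in DU145 and 36.4 in DU145-LIN28A, beside histone sums of 72, 542 and 692 CPM. The part of poly(A) selection in the histone values was not tested.

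Proliferation differed between libraries of one group. The summed level of 16 mitosis genes was 5490 CPM in DU145-LIN28A WT replicate 1 and 919, 623 and 986 in the other replicates. It ranged from 2230 to 5780 in DU145 WT and from 1850 to 5440 in DU145-LIN28A cKO1. In IGROV1 it was 1030 in cKO1 replicate 4 against 2240 to 3060 in the others, and 2010 in cKO2 replicate 4 against 3770 to 4540. None of the 16 genes was called in any of the 6 comparisons of a clone with its wild type by edgeR, with 0 to 7 at an unadjusted p under 0.05. Between the clones of DU145-LIN28A, 3 were called higher in cKO1 (17.7% of all genes, about the same share), with 16 of 16 positive and a median of 1.07. Between those of IGROV1 none was called, with 3 at an unadjusted p under 0.05, 0 of 16 positive and a median of -0.77, beside the 7 members that were lower in cKO1. Between those of DU145 none was called or under that p, and the median was 0.03. With LIN28A in wild type none was called, with 9 under that p, 0 of 16 positive and a median of -0.95, and in mutants 2 fell (9.76% of all genes; median -0.76). Of 38 S phase and DNA replication genes, 5 rose in DU145 cKO1 (10.4% of all genes; median 0.64) and 2 in cKO2 (9.99%; median 0.38), which is near and below the share of all genes. In DU145 cKO2, where the median of the histone members was -0.24, 36 of the 38 were positive. In DU145-LIN28A 12 rose in cKO1 (11.3%; median 0.86) and none in cKO2 (median 0.19), where 2 were at an unadjusted p under 0.05. In IGROV1 cKO1, 3 fell (16.6%), 1 of 38 was positive and the median was -0.38, and in cKO2 none was called by edgeR, with 3 at an unadjusted p under 0.05 (median 0.17). The genes named by the rule, in the mean of the clones against wild type, were GINS3 (0.75), MCM2 (0.83) and E2F2 (1.29) in DU145. They were CCNE1 (0.65), MCM2 (0.76) and MCM3 (0.70) in DU145-LIN28A, and SLBP (-0.45) and CCNE1 (-0.42) in IGROV1. The part of these differences in the histone values was not tested.

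With the log2 of that sum as a covariate beside the groups, 7 members fell and 3 rose per doubling of the mitosis sum, while 13.8% of all genes fell and 9.07% rose. HIST3H2A fell by 0.63 per doubling (SE 0.07, adjusted p = 8.53e-09), HIST1H2AC by 0.49 (SE 0.08, adjusted p = 1.86e-05) and HIST2H2BE by 0.39 (SE 0.08, adjusted p = 0.00014). HIST1H2BJ rose by 0.57 (SE 0.11, adjusted p = 0.000137), HIST1H1B, which encodes H1.5, by 1.08 (SE 0.23, adjusted p = 0.000375) and HIST1H3G by 0.63 (adjusted p = 0.00838). HIST1H2AC was at 23.6 CPM in the DU145-LIN28A WT library with the high mitosis sum and at 61, 83.7 and 73.1 in the others, and HIST1H2BJ at 3.21 against 1.34, 0.881 and 0.811. Without that library 3 members fell (8.45% of all genes) and 1 rose (6.45%), namely HIST3H2A (-0.70), HIST2H2BE (-0.47), HIST1H2AC (-0.39) and HIST1H1B (1.29). HIST1H2BJ (0.55, adjusted p = 0.0148) and HIST1H3G (0.90, adjusted p = 0.0226) were then no longer called. In the IGROV1 libraries alone 5 of 21 tested members fell and none rose, beside 24.4% and 25.5% of all genes, so the share that fell was near that of all genes. In the DU145 and DU145-LIN28A libraries alone 5 of 27 fell and 5 rose, beside 11.7% and 11.9% of all genes. HIST1H2BJ went one way in DU145 and the other in IGROV1. Its slope was 0.72 (SE 0.09) in the 24 libraries of the DU145 backgrounds and -0.93 (SE 0.27) in the 12 of IGROV1. HIST1H2BK fell with the sum in IGROV1 (-0.77, adjusted p = 0.000119) and not in DU145 (0.11, adjusted p = 0.062). In the fit with this covariate 22 members rose in DU145 cKO1 (13.4% of all genes), 18 rose in DU145-LIN28A cKO1 (12%) and 4 fell in DU145-LIN28A cKO2 (11.6%). In the mean of the DU145-LIN28A clones against wild type 5 rose and none fell (10.2% and 9.94%). For LIN28A in wild-type cells none was called (2.27% of all genes rose and 1.66% fell). The covariate was chosen after the data were seen.

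**Figure D5:**
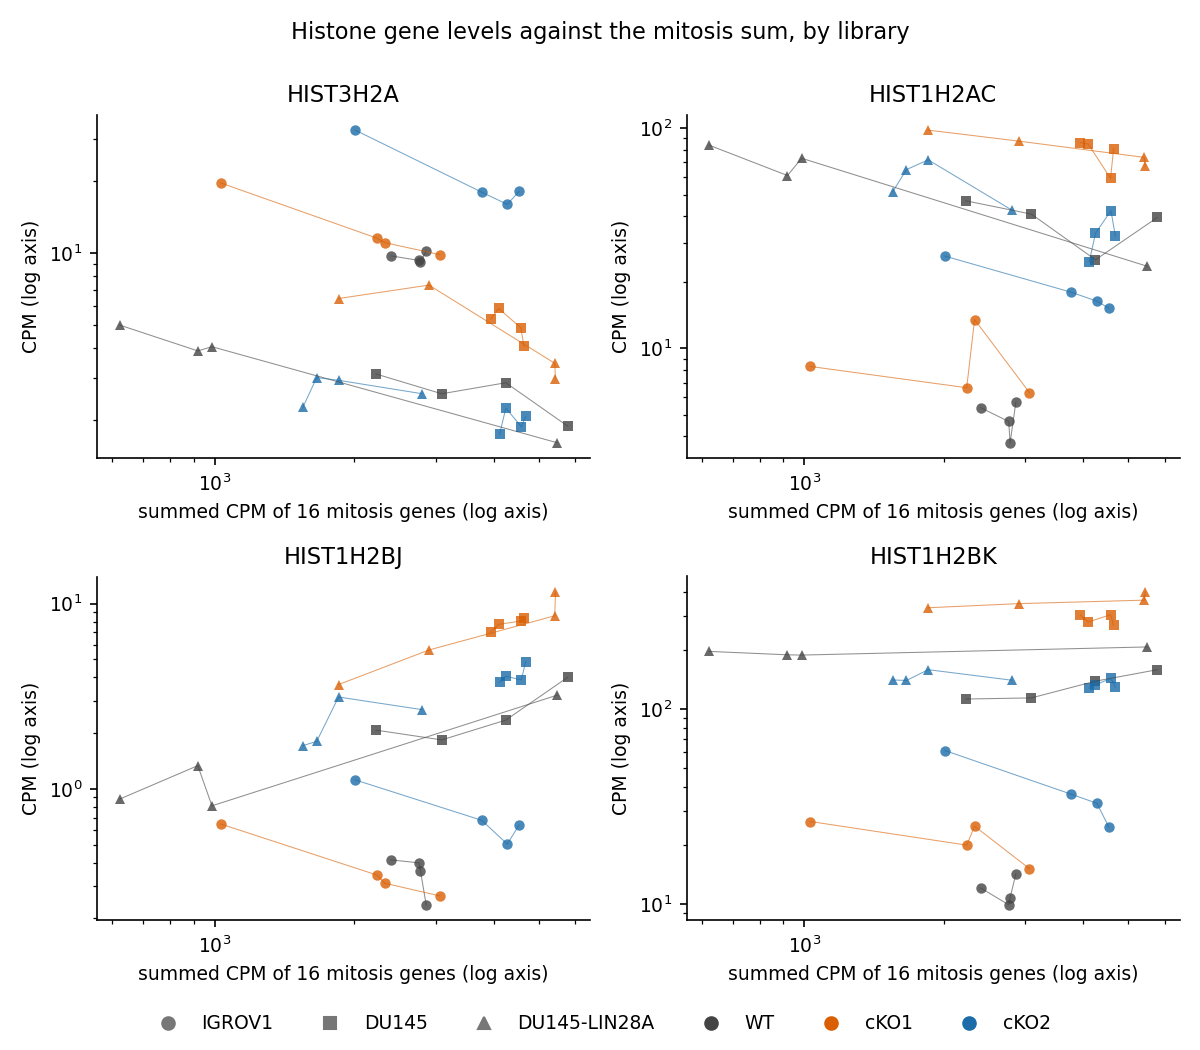
Level of 4 histone genes (vertical axis, CPM, log scale) against the summed CPM of 16 mitosis genes (horizontal axis, log scale) in the 36 libraries; shapes mark the background, colours the wild type and the clones, and thin lines join libraries of one group in order of the sum. HIST3H2A and HIST1H2AC are lower at higher sums within most groups, and HIST1H2BJ is higher in the DU145 backgrounds and lower in IGROV1. For HIST1H2BK each cKO1 library of both DU145 backgrounds lies above its wild type. These groups share only part of the range of sums, which in DU145-LIN28A is 623 to 5490 in WT and 1850 to 5440 in cKO1.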

How the data were processed

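RNA was poly(A) selected and libraries were made with a directional kit. Per the labels and the study's methods, the authors trimmed reads with Trimmomatic 0.39, removed rRNA with sortMeRNA, aligned to hg38 with HISAT2 2.1.0 and deposited HTSeq counts per gene. The HTSeq version, annotation and strand setting are not given in the sources used here. Lines that name no gene (21.9% to 30.1% of each table, 9.28% to 14.5% for reads that were not unique) were left out. The 36 small RNA libraries were not used.

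Deposited counts of all 26485 genes entered 1 fit with 9 group means in edgeR 4.0.16 (R 4.3.3; quasi-likelihood test, TMM, filterByExpr with a minimum count of 10 and total of 15). Of these, 15556 were tested, p-values were adjusted over them by Benjamini-Hochberg, and genes past 0.01 were called. DESeq2 1.42.0 was an alternative. On simulated counts for IGROV1 mutants, over 15556 genes, 72% of 100 genes changed 2-fold and 99% of 100 changed 4-fold were recovered, with 3 false calls. Levels are on the counts-per-million (CPM) scale of the reads counted to genes.

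The named genes were the 10 called members with the smallest adjusted p in each mutant comparison and interaction, the 10 with the highest mean CPM, 5 in each of the line and LIN28A comparisons, and up to 3 called genes per list. Others were chosen after their values were seen. Members and lists were chosen with earlier results of these data known. Sequences came from hg38 and from RefSeq (GRCh38.p14), in which 73 of 73 members matched. Replicates 1 and 2 and replicates 3 and 4 were also fitted apart as possible sequencing runs, read from numbers in the file names, which the labels do not explain. None of 54 replicate pairs had identical values.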

Additional observations from a re-analysis of the deposited data

Results flagged for a closer look

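Of 135 groups of 4 libraries looked at, 8 held a library far from the other 3, where chance gives about 1 in 20. In IGROV1 cKO1, HIST1H2BD was at 13.7 CPM in replicate 3 and at 7.78, 8.15 and 8.46 in the others. In IGROV1 cKO2 replicate 4, HIST2H2BE was at 55.1 CPM (others 27.7, 28.1 and 28.4) and HIST3H2A at 32.7 (others 16, 18 and 18.1). The mitosis sum of that library was 2010 CPM, against 3770 to 4540 in the others.

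In DU145, HIST1H1C was at 621 CPM in cKO1 replicate 1 (others 669, 669 and 671) and at 121 in cKO2 replicate 4 (others 147, 147 and 149). In DU145-LIN28A WT replicate 1, whose mitosis sum was 5490 CPM, HIST1H2BD was at 15.7 CPM (others 30.2, 31.4 and 31.7). In DU145-LIN28A cKO2 replicate 4 the summed histone level was 480 CPM (others 413, 414 and 415) and HIST1H2BK was at 159.4 (others 140, 141 and 141).

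The difference of mutants from wild type was itself different between IGROV1 and DU145 for 4 of 32 members, by an interaction term in edgeR's quasi-likelihood test. Of these, 2 were higher and 2 lower, beside 11.3% and 12.8% of all genes, so the share of members was below that of all genes. They were HIST2H2BE (1.77, adjusted p = 3.66e-05), HIST1H3B (-1.78, adjusted p = 0.00389), HIST1H2BK (0.81, adjusted p = 0.00711) and HIST2H2AC (-1.86, adjusted p = 0.00887). The DU145 value is a mean of unlike clones (HIST2H2BE 1.42 in cKO1 and -0.98 in cKO2, HIST1H3B 2.36 and 0.33). In DU145 and for IGROV1 cKO1 the difference from wild type cannot be told apart from passage.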

How the results depend on the processing

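Counts of called members are given first, mostly without the share of all genes under the same setting. They show how the number of called members moved, and not how members compare with all genes. Without a filter on low counts, IGROV1 mutants gave 11 (6 rose, 5 fell) and DU145-LIN28A mutants 1. At an adjusted p of 0.05 there were 11 for IGROV1 mutants, 7 for IGROV1 cKO1, 14 for IGROV1 cKO2, 11 for DU145-LIN28A cKO2, 1 for LIN28A in mutants, 10 for IGROV1 minus DU145 and 1 for DU145-LIN28A minus DU145. Replicates 1 and 2 alone gave 3, 2 and 0 for the mutants of IGROV1, DU145 and DU145-LIN28A, 2 for IGROV1 cKO1, 10 for DU145 cKO1, 6 and 3 for DU145-LIN28A cKO1 and cKO2, 0 for LIN28A in wild type, 2 for IGROV1 minus DU145, and 2 and 11 between the clones of IGROV1 and DU145. Replicates 3 and 4 alone gave 0 and 1 for the mutants of DU145 and DU145-LIN28A, 7 and 1 for DU145 cKO1 and cKO2, 5 for DU145-LIN28A cKO1, 1 and 3 for LIN28A in wild type and in mutants, and 3, 14 and 13 between the clones of IGROV1, DU145 and DU145-LIN28A. Fitting only the backgrounds compared gave 1 for DU145-LIN28A mutants, 2 for IGROV1 cKO1 and 4 between the IGROV1 clones. With the mitosis sum as a covariate, chosen after the data were seen, there were 5 for DU145-LIN28A mutants, 4 for DU145-LIN28A cKO2, 0 for LIN28A in wild type and 7 for IGROV1 minus DU145. The slope on the mitosis sum gave 10 calls in all libraries, 5 in IGROV1 alone (all fell, of 21 tested, where 24.4% of all genes fell) and 4 without DU145-LIN28A WT replicate 1. Fits of part of the replicates hold fewer samples, and otherwise the cause was not tested.

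Leaving out 1 library gave 6 to 7 calls for IGROV1 mutants, 2 to 6 for DU145 mutants, 0 to 5 for DU145-LIN28A mutants, 3 to 5 and 9 to 11 for IGROV1 cKO1 and cKO2, 15 to 18 and 2 to 3 for DU145 cKO1 and cKO2, 11 to 15 and 3 to 8 for DU145-LIN28A cKO1 and cKO2, 1 to 7 and 0 to 1 for LIN28A in wild type and in mutants, 19 to 21 between the wild-type lines, 1 to 5 for IGROV1 minus DU145, 0 to 1 for DU145-LIN28A minus DU145, and 3 to 8, 18 to 21 and 18 to 20 between the clones of IGROV1, DU145 and DU145-LIN28A. The summed ratio to wild type was 0.742 for DU145 cKO2 and 0.923 without HIST1H1C, and 0.623 for DU145-LIN28A cKO2, 0.764 without HIST1H1C and 0.56 on TMM library sizes. Library size alone moved the median of all genes by 0.12 for DU145 cKO2 and 0.13 for DU145-LIN28A cKO2.

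Correlations of the deviations of same-numbered replicates of different groups were -0.28 to 0.744 (median 0.014), with 47 of 144 over 0.1, against 89 of 432 and at most 0.503 for other numbers. Some same-numbered replicates thus deviated together, though not every pair was over 0.1. The main fit held no term for the replicate number, so such a shared deviation was left in it. With a replicate block the counts were 7, 7 and 2 for the mutants of IGROV1, DU145 and DU145-LIN28A, 19 for DU145 cKO1 and 16 for DU145-LIN28A cKO1. Of 570 values of single named members under the other settings, 504 kept direction and call, 66 were no longer past the threshold and 0 changed sign, and leaving out 1 library, 79 of 516 were no longer past it and 0 changed sign.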
